A study of Vitis vinifera with 165 samples.

Results

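An early step of sugar accumulation in berries of the 2012 season was described in Pinot noir, a red wine grape of the species Vitis vinifera. It is the comparison of berries collected 9 days before veraison (day -9) with berries collected 18 days before it (day -18). Veraison is the onset of ripening, when berries soften and take on colour. The libraries were chosen by season and time point as the labels give them, and are 12 of the 165 libraries of the series, 6 from day -9 and 6 from day -18.

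Both days held 3 libraries from vines with 75% of the clusters removed after fruit set (a cluster kept on every other shoot) and 3 from vines with 50% removed (a cluster kept on each shoot). Unthinned vines were not analysed here, so a reduced crop is common to all groups. All vines were of clone FPS 23 on the rootstock Freedom, grown near Modesto, California. Each library came from a pool of 60 berries taken from 6 clusters out of blocks of 8 vines, ground without the seeds and labelled as berry pericarp, which is skin and flesh. Set beside them were 12 libraries from days -7 and -14 of 2013 and 18 from days 0, -6 and -14 of 2014, with the same thinning levels. For time courses, the later days of all 3 seasons were read as well. The labels do not tie a replicate number to a vine block or row, so p-values measure only the spread between these pooled samples.

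A grape berry grows in a pair of expansion phases with a lag between them. Late in the lag the flesh softens, sugar is unloaded from the phloem and stored in the vacuoles of the flesh cells, and organic acids stop building up. In red cultivars the skin then begins to make anthocyanins. The hormone abscisic acid is known to promote this change and auxin to delay it. Genes of cell division, photosynthesis and tannin synthesis are known to be turned down around this time, and genes of cell wall loosening, sugar transport and pigment synthesis to be turned up. The gene models of the deposited table carry identifiers that give chromosome, scaffold and order, and none of the 29971 identifiers matched a named gene in the reference table at hand. Gene models are therefore described by identifier, level, position and time course, with no name or function, and the labelled tissue could not be checked against its defining marker genes.

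Labelled sugar on day -9 was 4.21, 6.11 and 4.33 g per 100 ml at 75% thinning and 5.58, 4.54 and 5.66 g per 100 ml at 50% thinning. On day -18 it was 1.03, 1.20 and 1.21 g per 100 ml at 75% thinning and 0.93, 1.04 and 1.29 g per 100 ml at 50% thinning. All day -9 values lay above all day -18 values, and the spread of day -9 was wider within both thinning levels. Over the season sugar was 0.48 to 0.59 g per 100 ml on day -28, 0.93 to 1.29 g per 100 ml on day -18, 4.21 to 6.11 g per 100 ml on day -9 and 10.2 to 13.4 g per 100 ml on day 0. It had thus already risen without overlap over the preceding step.

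Expression levels are in RPKM, a read number divided by the length of the gene model and by the mapped reads of the library, so they are per length and relative to the library. How deeply each library was sequenced cannot be read from such values, and counting error was not estimated. Summed over gene models, RPKM was 995510 to 1048090 on day -9 and 910136 to 998879 on day -18. Between 16560 and 16828 gene models reached an RPKM of 1 on day -9, and 17042 to 17425 did so on day -18.

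The day -18 libraries were less alike than the day -9 libraries, and 2 of them stood apart. Across the tested gene models, log2 values correlated at 0.985 to 0.990 within the groups of day -9. On day -18 the correlations were 0.973 to 0.975 among the 75% libraries and 0.908 to 0.959 among the 50% libraries. Replicates 1 and 2 of 50% thinning on day -18 correlated more with day -28 libraries of 75% thinning (0.933 to 0.942 and 0.966 to 0.975) than with day -28 libraries of their own level (0.907 to 0.910 and 0.944 to 0.946). The other 4 day -18 libraries correlated more with day -28 at 50% thinning, at 0.969 to 0.986. The median standard deviation over 6 libraries was 0.124 on day -9 and 0.276 on day -18 on the log2 scale, and it was wider on day -18 for 16013 of 18070 gene models (88.6%). Whether labels were exchanged among the libraries of these early days could not be checked in these files, and values by thinning level rest on the labels as given. All labels were kept, and values without those 2 libraries are given beside the main counts and the named gene models.

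Many gene models changed over the step, and more of them fell than rose. Of 18070 gene models tested, 2733 (15.1%) passed an adjusted p of 0.05 in limma with an absolute log2 change of at least 1. Of these, 1052 were higher on day -9 (5.82% of those tested) and 1681 were lower (9.3%). The split narrowed with other scalings, to 1178 higher and 1440 lower after quantile normalization, and to 1153 and 1516 after scaling by median ratios. Changes are on the scale of log2(RPKM + 1), which understates those of low gene models. The gene models that rose had a median log2 change of 1.51 (quartiles 1.21 and 2.19), and those that fell had a median of -1.44 (quartiles 1.18 and 1.88 in size), while the median over all tested gene models was -0.05. In bulk samples such as these, fewer cells of a type and less RNA per cell cannot be told apart.

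On the log2(RPKM + 1) scale, which limits how far a low gene model can fall, more rises than falls were large. A log2 change of 2 or more was found for 323 risers and 349 fallers. For 3 or more the counts were 144 risers and 51 fallers, and for 5 or more they were 32 risers and 1 faller. The libraries of both days did not overlap for 951 of the risers (90.4%) and 1463 of the fallers (87.0%), against 14.6% of all tested gene models in the upward direction and 19.1% in the downward direction. Without the 2 libraries that stood apart, 2465 gene models were called, 913 higher and 1552 lower. These included 861 of the 1052 risers and 1368 of the 1681 fallers.

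**Figure D1:**
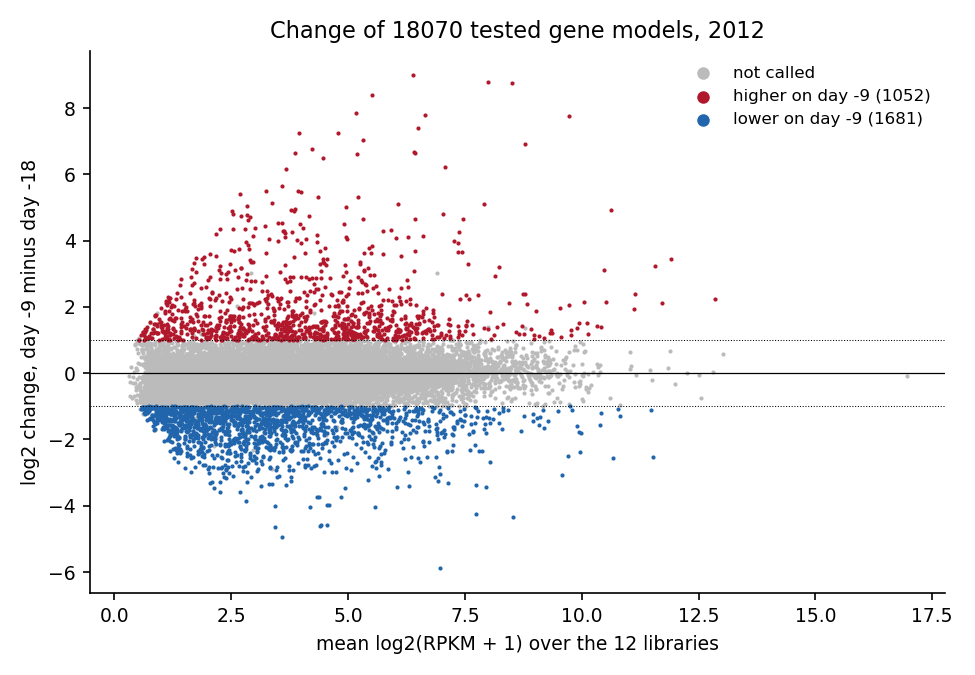
Log2 change on day -9 minus day -18 (vertical axis) against the mean log2(RPKM + 1) of the 12 libraries (horizontal axis) for each of 18070 tested gene models. Red points were called higher (1052), blue points were called lower (1681), and dotted lines mark a change of 1 either way; the red points spread up to 8.98, and the blue points end at -5.88.

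The calls were counted by level. By mean RPKM over the 12 libraries, 38 of the 78 gene models above 1000 rose (48.7%) and 4 fell (5.13%). Between 100 and 1000, 182 of 1300 rose (14.0%) and 62 fell (4.77%). Between 1 and 10 the balance was the other way, with 254 of 7167 higher (3.54%) and 896 lower (12.5%). Below 1, where a gene model could pass the filter only through the libraries in which it was high, 21 of 1230 rose (1.71%) and 239 fell (19.4%). These are counts of calls, and the levels include the libraries tested.

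Per library, the risers made up 18.8%, 22.5% and 18.8% of total RPKM on day -9 at 75% thinning, and 21.1%, 22.3% and 20.7% at 50% thinning. On day -18 they made up 4.61%, 4.62% and 5.31% at 75% thinning and 3.82%, 3.54% and 4.58% at 50% thinning. That the days do not overlap is fixed by the choice of these gene models, and the sizes are a description.

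The fallers made up 4.16%, 3.42% and 4.08% of total RPKM on day -9 at 75% thinning, and 3.55%, 3.51% and 3.23% at 50% thinning. On day -18 they made up 12.8%, 14.7% and 10.4% at 75% thinning and 19.0%, 17.4% and 11.4% at 50% thinning. The highest pair of faller shares came from the 2 libraries that stood apart, whose riser shares, 3.82% and 3.54%, were the lowest pair.

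The gene models with the largest gains and losses of mean RPKM carried a part of this turnover. The 5 risers with the largest gain in mean RPKM had means of 8750 to 16320 on day -9 and 80.3 to 3501 on day -18, with log2 changes of 2.24 to 7.75 (adjusted p in limma at most 0.0051). Together they took 5.40% to 6.43% of total RPKM on day -9 and 0.402% to 1.17% on day -18. The 5 fallers with the largest loss had means of 54.0 to 1959 on day -9 and 2280 to 7936 on day -18 (adjusted p in limma at most 0.0026). They took 0.337% to 0.454% of total RPKM on day -9 and 1.13% to 4.53% on day -18. The libraries of both days were apart for all 5 risers and for 3 of the 5 fallers. Among these fallers were the widely varying gene models with the largest downward difference from 2013, described below. In the 2013 step, also described below, 3 of the 5 risers and 2 of the 5 fallers were called. Of all tested gene models, 2.48% were called higher and 3.59% lower there.

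A score over gene models chosen in another season does not rest on the calls made here. It is the mean log2 level of the 450 gene models called higher in the 2013 step described below minus that of the 650 called lower there. On day -9 it was 2.67, 3.27 and 2.53 at 75% thinning and 3.17, 3.10 and 3.27 at 50% thinning. On day -18 it was -1.24, -1.08 and -1.10 at 75% thinning and -1.61, -2.01 and -1.45 at 50% thinning. All 6 day -9 libraries lay above 0 and all 6 day -18 libraries below it. On day -28 the score was -1.99 to -1.27, inside the range of day -18.

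**Figure D2:**
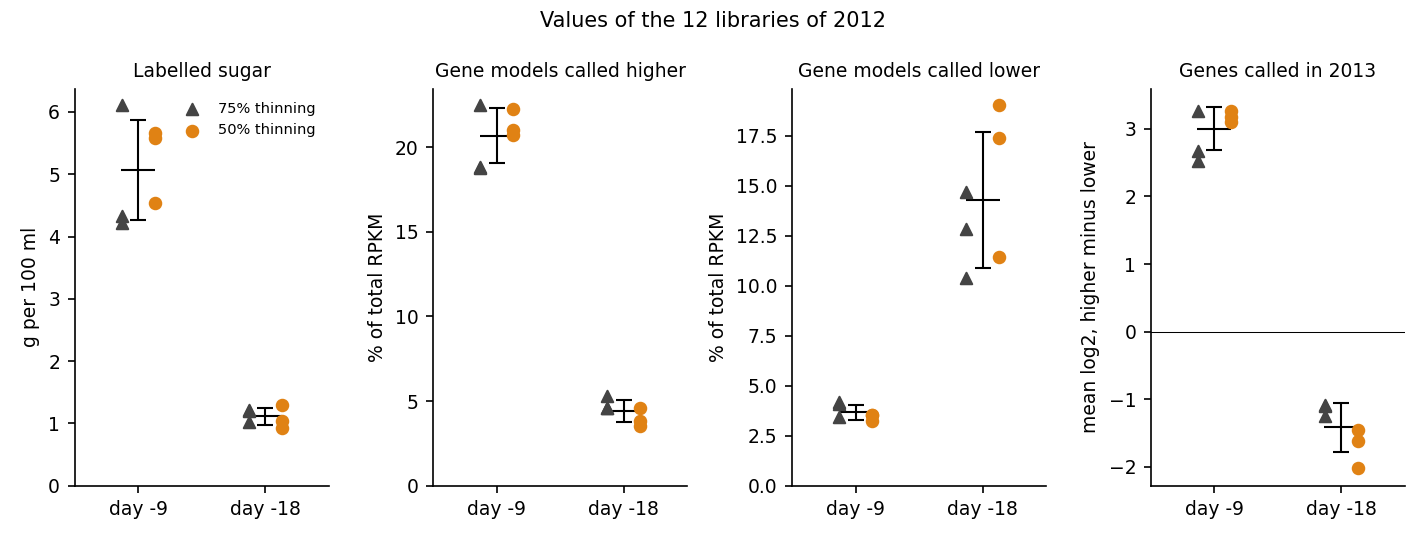
Values of the 12 libraries of 2012 on day -9 and day -18: labelled sugar in g per 100 ml, the percent of total RPKM in gene models called higher, the percent in those called lower, and the score over gene models called in 2013 (mean log2 of those higher minus those lower). Triangles are 75% and circles 50% thinning, and black bars give the mean and SD of 6 libraries; the risers took 18.8% to 22.5% on day -9 and 3.54% to 5.31% on day -18.

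Among gene models whose libraries did not overlap between days, the largest rise was that of VIT_06s0061g00550 on chromosome 6. Its RPKM on day -9 was 1300, 2340 and 2250 at 75% thinning and 1850, 1880 and 1830 at 50% thinning. On day -18 it was 7.10, 9.14 and 4.19 at 75% thinning and 0.206, 0.079 and 3.68 at 50% thinning. All day -9 values were above 1000 and all day -18 values below 10, and the 2 libraries that stood apart held the lowest. The log2 change was 8.98 with a standard error of 0.43 (adjusted p = 1.53e-08 in limma), and it was 8.20 without those libraries.

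The second was VIT_05s0094g00340 on chromosome 5. Its RPKM on day -9 was 4770, 9390 and 3610 at 75% thinning and 4750, 6420 and 4700 at 50% thinning. Day -18 values were 39.3, 62.1 and 8.48 at 75% thinning and 2.69, 2.65 and 9.24 at 50% thinning. Day -18 values spread widely, yet the highest was far below the lowest of day -9. The log2 change was 8.77 with a standard error of 0.55 (adjusted p = 1.38e-07 in limma), and it was 8.04 without the 2 libraries that stood apart, which held its lowest values.

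After day -9 these gene models took different courses. VIT_06s0061g00550 averaged 4.07 ± 3.63 RPKM on day -18, 1910 ± 369 on day -9, 2470 ± 332 on day 0 and 2640 ± 225 on day 32 (SD, n = 6 each). VIT_05s0094g00340 averaged 20.7 ± 24.5 RPKM on day -18, 5610 ± 2060 on day -9, 12000 ± 1910 on day 0, 18800 ± 1480 on day 11 and 14000 ± 1030 on day 32 (SD, n = 6 each). By day -9 the first was thus nearer to its later level than the second.

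The largest fall was that of VIT_02s0154g00320 on chromosome 2. Its RPKM on day -9 was 22.9, 26.4 and 17.4 at 75% thinning and 11.8, 9.68 and 10.3 at 50% thinning. The day -18 libraries held 806, 571 and 398 at 75% thinning and 2980, 2820 and 507 at 50% thinning. The 2 libraries that stood apart held the highest values. The log2 change was -5.88 with a standard error of 0.52 (adjusted p = 1.72e-06 in limma), and it was -4.91 without them. Later means were lower still, at 7.68 ± 4.40 RPKM on day 0 and 1.35 ± 0.878 on day 21 (SD, n = 6 each).

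The next fall was that of VIT_09s0002g00670 on chromosome 9. Its RPKM on day -9 was 0.678, 0.584 and 4.05 at 75% thinning and 0.817, 1.57 and 0.612 at 50% thinning. Day -18 values were 56.1, 43.4 and 42.9 at 75% thinning and 130, 97.8 and 60.2 at 50% thinning. A single day -9 library, replicate 3 at 75% thinning, stood above the rest of its day, yet far below all of day -18. The log2 change was -4.95 with a standard error of 0.33 (adjusted p = 2.09e-07 in limma), and it was -4.55 without the 2 libraries that stood apart. On day 0 the value was between 0 and 0.344 RPKM in the 6 libraries.

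The 10 largest rises without overlap had log2 changes of 7.24 to 8.98, with mean RPKM of 191 to 12700 on day -9 and 0.272 to 80.3 on day -18. The 10 largest falls without overlap were 3.97 to 5.88 in size, with mean RPKM of 1.25 to 16.4 on day -9 and 67.2 to 1350 on day -18. The largest adjusted p among them in limma was 6.13e-07 for the risers and 3.74e-05 for the fallers. All 20 kept their calls under each of the 23 other settings run, which reuse the libraries that chose them. Of the 10 risers, 10 were also called in the 2013 step and 8 in the 2014 step into day 0, both described below. Of the 10 fallers, 10 were called in each. The shares of all tested gene models called in those steps are given in the next paragraph.

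Some gene models crossed from near absence to clear expression, or back. With limits taken after the values were seen, 24 gene models had an RPKM of at least 5 in all 6 day -9 libraries and under 1 in all 6 day -18 libraries. Their mean RPKM on day -9 was 7.02 to 191, with a median of 22.7. In the other direction, 7 gene models were under 1 in all day -9 libraries and at least 5 in all day -18 libraries, with day -18 means of 8.39 to 19.3 RPKM. All 24 and all 7 were also called the same way in the 2013 step and in the 2014 step into day 0 described below. Of all tested gene models, 2.48% were called higher and 3.59% lower in that 2013 step, and 3.44% higher and 11.6% lower in that 2014 step.

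Called gene models were found on every chromosome. The share of tested gene models that rose lay between 3.06% on chromosome 15 (19 of 620) and 8.53% on chromosome 2 (61 of 715). The share that fell lay between 7.56% on chromosome 16 (50 of 661) and 11.0% on unplaced scaffolds (156 of 1417). By the order in the identifiers, 219 of the 1052 risers (20.8%) stood in 95 runs of neighbouring gene models that all rose, and 378 of the 1681 fallers (22.5%) in 174 runs that all fell. Of all tested gene models, 7.35% had a direct neighbour that rose and 11.7% one that fell. Neighbours can be near-identical copies whose reads the processing could divide between them, and the libraries did not mark strand, so single gene models of a run are uncertain.

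The longest run held 7 neighbouring gene models on scaffold 25 of chromosome 2. Their summed RPKM on day -9 was 8138, 14600 and 7501 at 75% thinning and 9913, 11360 and 9029 at 50% thinning. On day -18 the sum was 91.4, 89.3 and 30.4 at 75% thinning and 50.3, 22.1 and 41.7 at 50% thinning. Across the season the sum was 43.4 ± 41.5 on day -28, 54.2 ± 29.6 on day -18, 10090 ± 2593 on day -9, 29970 ± 7658 on day 0, 45450 ± 6092 on day 11, 40810 ± 6365 on day 21 and 25260 ± 2909 on day 32 (SD, n = 6 each). The run was thus low in all 12 earliest libraries, and its mean was highest on day 11 and lower again by day 32.

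Levels within the run were unequal. The sixth gene model held most of the signal, at 7624 ± 1348 RPKM on day -9 and 23.2 ± 19.3 on day -18 (SD, n = 6 each), a log2 change of 8.76. The third had 1314 ± 738 RPKM on day -9 and 9.51 ± 10.3 on day -18, and the fourth had 958 ± 512 on day -9 and 8.72 ± 4.68 on day -18. The second had 30.9 ± 9.52 RPKM on day -9 and was listed at 0 in 4 of the 6 day -18 libraries. The fifth, with the smallest change of the run at 2.23, had 11.2 ± 1.03 RPKM on day -9 and 1.85 ± 1.52 on day -18. In each of the 7 the days did not overlap, and 6 were also called higher in the 2013 step and 6 in the 2014 step into day 0. The first was not, with a log2 change of 2.68 in 2012, 0.67 in 2013 and 0.62 in 2014.

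**Figure D3:**
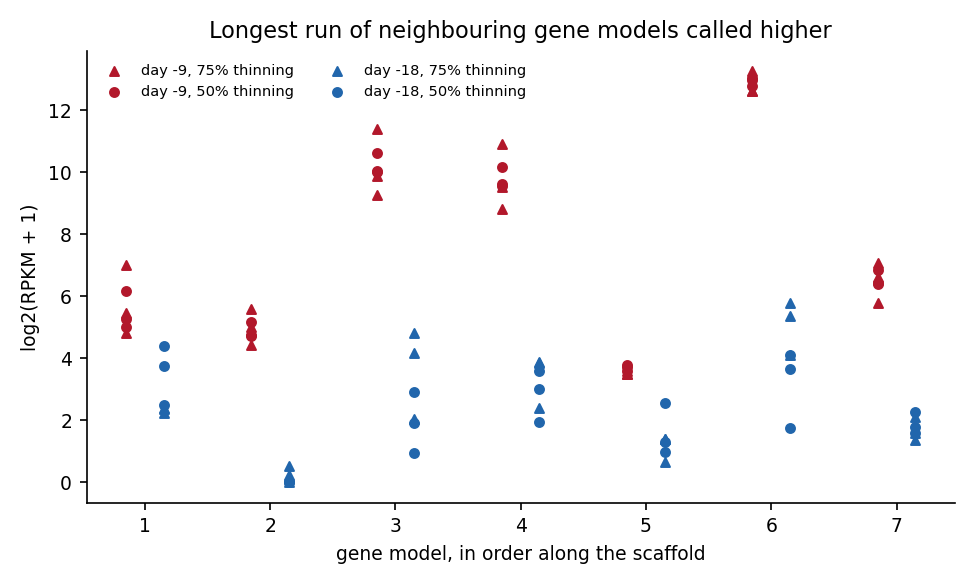
RPKM, as log2(RPKM + 1), of the 7 neighbouring gene models of the longest run (horizontal axis, in order along the scaffold) in each of the 12 libraries. Red is day -9 and blue day -18, triangles are 75% and circles 50% thinning; all red points stand above all blue points in each gene model, and the sixth averages 7624 RPKM on day -9 and 23.2 RPKM on day -18.

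The other 6 runs of 4 or more gene models recurred to different degrees in the 2013 step and in the 2014 step into day 0. A run of 4 risers on scaffold 90 of chromosome 19 summed to 3777 ± 1113 RPKM on day -9 and 165 ± 69.8 on day -18 (SD, n = 6 each), and its 4 members were called higher in both other seasons as well. A run of 6 risers on scaffold 7 of chromosome 8 summed to 1140 ± 191 RPKM on day -9 and 361 ± 214 on day -18, and 4 of its members were called higher in 2013 and 4 in 2014. A second run on scaffold 25 of chromosome 2, of 5 risers, summed to 170 ± 12.3 RPKM on day -9 and 67.0 ± 26.4 on day -18, and only 1 of its members was called higher in 2013 and 0 in 2014. A run of 5 fallers on the unplaced scaffold 246 summed to 1.85 ± 0.401 RPKM on day -9 and 18.3 ± 19.6 on day -18, and none of its members was called lower in either other season. A run of 4 fallers on scaffold 26 of chromosome 1 summed to 16.5 ± 3.75 RPKM on day -9 and 70.0 ± 14.5 on day -18, with 2 members called lower in 2013 and 3 in 2014. A run of 4 fallers on scaffold 46 of chromosome 15 summed to 16.1 ± 3.56 RPKM on day -9 and 83.0 ± 20.7 on day -18, with 2 members called lower in 2013 and 2 in 2014.

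The thinning levels were then compared to learn whether the step was alike in both. In limma the interaction of day and thinning passed an adjusted p of 0.05 for 0 of 18070 gene models (0.0%), with 1398 at an unadjusted p under 0.05. Fitted apart, 75% thinning gave 2165 calls and 50% thinning 3070, among which were 801 and 973 of the 1052 risers, and 1220 and 1485 of the 1681 fallers. The mean share of RPKM in risers on day -9 was 20.04% ± 2.13 at 75% thinning and 21.3% ± 0.824 at 50% thinning, and on day -18 it was 4.85% ± 0.402 at 75% thinning and 3.98% ± 0.537 at 50% thinning (SD, n = 3 each).

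This count moved with the day -18 libraries of 50% thinning. Without replicate 3 of that group, which leaves the 2 libraries that stood apart, 2417 gene models had a different step (876 more upward and 1541 more downward at 75% than at 50% thinning). Without those 2 libraries the count was 0, but that group then holds 1 library, which is assumed to vary like the other groups, so this 0 says little. It was 952 where 1 spread was estimated over all 55 groups of the series, and, where libraries were weighted by their spread, 2801 by a gene-by-gene estimate and 0 by a restricted likelihood estimate. The number of gene models whose step differs with thinning is therefore not settled by these libraries.

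The season 2013 gave a step with no library in common. Labelled sugar there was 2.98 to 5.04 g per 100 ml on day -7 and 0.99 to 1.41 g per 100 ml on day -14. The mean of the later day was 5.07 ± 0.807 g per 100 ml in 2012 and 3.96 ± 0.801 g per 100 ml in 2013 (SD, n = 6 each). Of 18110 gene models tested there, 1100 were called in limma (6.07%), 450 higher (2.48%) and 650 lower (3.59%). Of the 2012 risers tested in 2013, 410 of 1027 (39.9%) were called higher there, and of the fallers 570 of 1599 (35.6%) were called lower. None was called in the opposite direction.

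Read from the other side, nearly all of the 2013 calls were found again in 2012. Of the 2013 risers, 410 of 450 (91.1%) were called higher in 2012, against 5.82% of all tested, with a median log2 change of 2.19 in 2012 and 1.44 in 2013. Of the 2013 fallers, 570 of 643 tested (88.6%) were called lower in 2012, against 9.3% of all tested, with a median of -1.78 in 2012 and -1.24 in 2013. The genes picked on 2013 values thus moved further in 2012 than in the season that picked them.

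The difference of the steps was tested directly in limma over 24 libraries. It passed an adjusted p of 0.05 and a log2 difference of 1 for 627 of 18679 gene models (3.36%), 325 more upward and 302 more downward in 2012. Of the 2012 risers 298 were among those more upward and 0 among those more downward, and of the fallers 286 were among those more downward and 0 among those more upward. Since these sets were chosen on 2012 values that enter the difference, their direction is in part given by the choice. Without the 2 libraries that stood apart the count was 389, and without replicate 3 of 50% thinning on day -18 it was 948.

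VIT_06s0061g00550 was the gene model with the largest upward difference. In 2013 its RPKM on day -7 was 1410, 425 and 1730 at 75% thinning and 1470, 907 and 2330 at 50% thinning. On day -14 it was 9.00, 34.0 and 11.0 at 75% thinning and 129, 382 and 212 at 50% thinning. The day -14 libraries of 50% thinning thus already held more of it than any day -18 library of 2012, and the highest day -7 value was close to the highest of day -9 of 2012. The log2 change was 4.35 in 2013 (adjusted p = 0.000151 in limma), and the step of 2012 exceeded it by 4.63 with a standard error of 0.82 (adjusted p = 0.00122 in limma). Without the 2 libraries that stood apart the difference was 3.84 (adjusted p = 0.00454 in limma).

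The 2 gene models with the largest downward difference varied widely among the day -18 libraries. The first, on chromosome 13, had RPKM of 104, 37.0 and 30.9 on day -9 of 2012 at 75% thinning and 71.8, 23.6 and 56.4 at 50% thinning. On day -18 it had 579, 4210 and 89.7 at 75% thinning and 6200, 2430 and 188 at 50% thinning. Its log2 change was -4.25 in 2012 (adjusted p = 0.0026 in limma) and -0.39 in 2013 (adjusted p = 0.0928 in limma), a difference of -3.86 with an adjusted p of 0.0175 in limma. The second, on chromosome 1, had a difference of -3.85 (adjusted p = 0.018 in limma). In 2012 the first averaged 107 ± 45.9 RPKM on day -28, 2280 ± 2500 on day -18, 54.0 ± 30.3 on day -9 and 1320 ± 1600 on day 21 (SD, n = 6 each). For the second these means were 204 ± 78.5, 4170 ± 4740, 90.0 ± 47.3 and 2150 ± 2720. Both were thus low on day -28 and higher again on day 21, with a wide spread, so they did not simply decline over the season. Neither passed without the 2 libraries that stood apart, where the difference was -2.67 for the first (adjusted p = 0.0604 in limma) and -2.77 for the second (adjusted p = 0.0665 in limma).

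In 2014 fewer of the 2012 calls were found in the step into labelled day -6 than in the step into labelled day 0, described next. Sugar there was 1.48 to 2.01 g per 100 ml on day -6 and 0.69 to 0.94 g per 100 ml on day -14. The step between these days gave 536 calls of 18211 tested in limma (2.94%), 417 higher (2.29%) and 119 lower (0.653%). Of the 2012 risers 190 of 960 (19.8%) were called higher in it, and of the fallers 62 of 1589 (3.9%) were called lower, with 2 risers and 15 fallers called the opposite way. The step of 2012 differed from it for 2526 of 19053 gene models (13.3%), 830 more upward and 1696 more downward in 2012, and after quantile normalization the split was 1052 and 1310. Without the 2 libraries that stood apart, 2295 gene models differed.

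The following step of 2014, day 0 against day -6, was set beside 2012 after its count had been seen. It gave 2719 calls of 18043 tested in limma (15.1%), 621 higher (3.44%) and 2098 lower (11.6%). Of the 2012 risers 516 of 1036 (49.8%) were called higher in it and 5 lower, and of the fallers 1141 of 1551 (73.6%) were called lower and 0 higher. In reverse, 516 of 613 of its risers (84.2%) and 1141 of 1932 of its fallers (59.1%) were called the same way in 2012.

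The difference of the 2012 step and this 2014 step passed both limits in limma for 937 of 18907 gene models (4.96%), 734 more upward and 203 more downward in 2012. The median difference over all gene models was 0.14 on the log2 scale, and other scalings changed the split. After quantile normalization the split was 507 and 309, and after scaling by median ratios it was 531 and 243. The risers had a median difference of 0.68 and the fallers of -0.15, beside that median of 0.14 over all gene models. Both sets were chosen on the 2012 step, which enters the difference, so these shifts are in part given by the choice. Without the 2 day -18 libraries that stood apart, 738 gene models differed, 615 more upward and 123 more downward in 2012.

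The labelled sugar did not move with expression in that 2014 step. It was 1.40 to 2.15 g per 100 ml on day 0 of 2014 and 1.48 to 2.01 g per 100 ml on day -6, while the risers of 2012 took 22.1% to 26.8% of total RPKM on day 0 and 5.37% to 12.1% on day -6. The score over gene models called in 2013 was 3.15 to 3.67 on day 0 and -0.43 to 1.23 on day -6. On day 7 of 2014 sugar was 11.3 to 13.5 g per 100 ml. Whether the sugar and day labels of day 0 of 2014 are right could not be checked in these files. Why sugar and expression parted there was not tested.

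**Figure D4:**
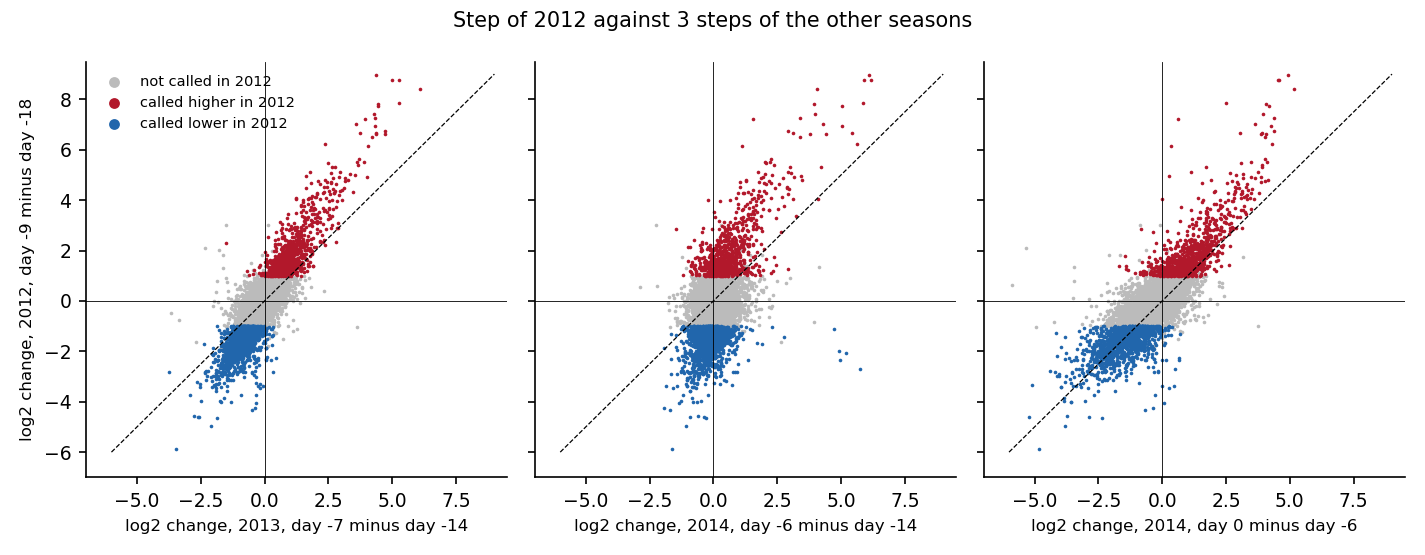
Log2 change of each tested gene model in the 2012 step (vertical axis) against its log2 change in 3 steps of the other seasons (horizontal axes), none of which shares a library with 2012. Red and blue mark the 1052 and 1681 gene models called higher and lower in 2012, and the dashed line marks equal change; the red points follow the line's direction in 2013 and in 2014 day 0 against day -6, where their medians are 0.87 and 1.01, and less so in 2014 day -6 against day -14, where it is 0.43.

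The later course of the called gene models was followed over the 7 days of 2012 that both thinning levels share. The median level of the risers, as log2(RPKM + 1), was 3.04 on day -28, 2.98 on day -18, 4.99 on day -9, 5.01 on day 0, 5.11 on day 11 and 4.73 on day 32. The risers were chosen as high on day -9 of 2012, and in 2013, whose libraries did not choose them, their median was 3.58 on day -14, 4.61 on day -7, 5.01 on day 0 and 5.00 on day 7. The median level of the fallers was 4.01 on day -28, 3.92 on day -18, 2.20 on day -9, 1.56 on day 0, 1.22 on day 11 and 1.02 on day 32, so that it went on downward after the step. The mean share of total RPKM in risers still climbed, and was 4.41% ± 0.638 on day -18, 20.7% ± 1.61 on day -9, 33.9% ± 0.738 on day 0 and 40.01% ± 1.22 on day 11 (SD, n = 6 each).

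**Figure D5:**
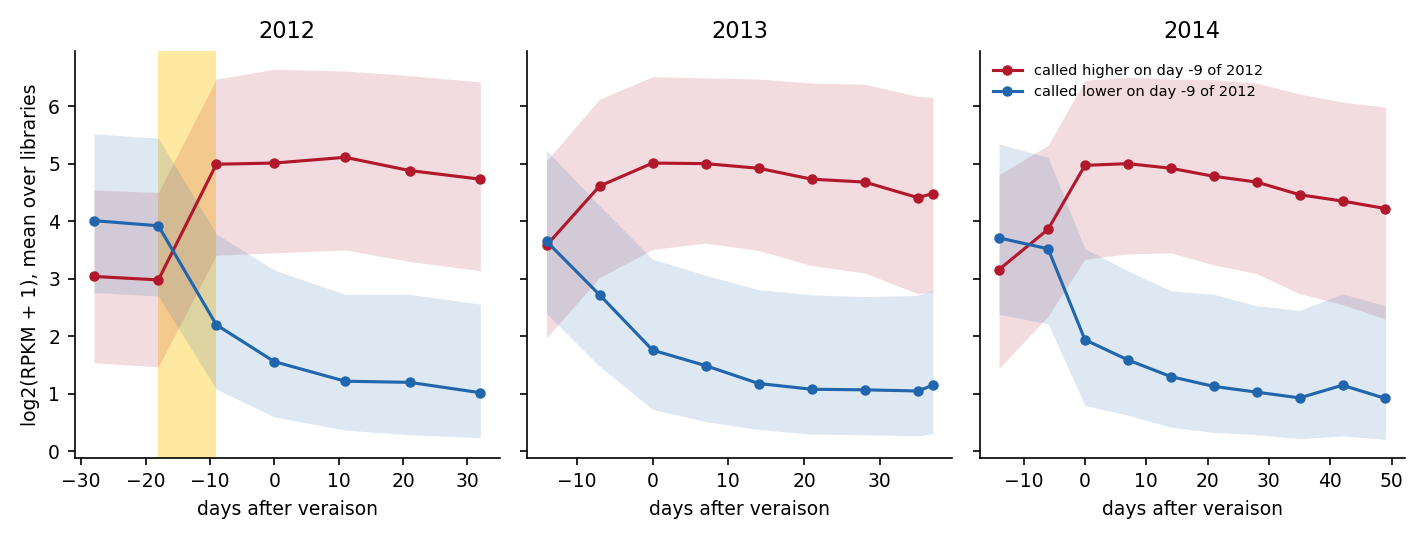
Median level, as log2(RPKM + 1) averaged over the libraries of a day, of the 1052 gene models called higher (red) and the 1681 called lower (blue) on day -9 of 2012, by days after veraison in each season, with shaded bands from the lower to the upper quartile. The yellow band marks the step from day -18 to day -9, over which the red median is 2.98 and then 4.99; in 2013 the red median is 3.58 on day -14 and 5.01 on day 0, and in 2014 it is 3.86 on day -6 and 4.97 on day 0.

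The risers split by the day on which they were highest in 2012. Of the 1052, 328 were highest on day -9 itself, 239 on day 0, 158 on day 11, 83 on day 21 and 242 on day 32. The 328 that peaked on day -9 had a median level of 3.48 on day -18, 5.17 on day -9, 4.52 on day 0 and 3.57 on day 32, a decline that their choice by peak day fixes. The 242 that peaked on day 32 had a median of 2.71 on day -18, 4.35 on day -9, 4.27 on day 0 and 5.71 on day 32.

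The same gene models were then followed in the other seasons, whose libraries had no part in this grouping, over windows of days that were taken after the values were seen and differ between seasons. Of the 328 gene models that peaked on day -9 of 2012, 271 (82.6%) were highest on day -7 or 0 in 2013, and 239 (72.9%) on day 0 or 7 in 2014. Of the 242 that peaked on day 32 of 2012, 14 (5.79%) were highest on day -7 or 0 in 2013 and 10 (4.13%) on day 0 or 7 in 2014. Over all 1052 risers the shares were 43.2% in 2013 and 41.2% in 2014, and over all tested gene models 18.6% in 2013 and 10.7% in 2014. Most of the 271 were highest on day 0 of 2013 (174) rather than on day -7 (97). In 2013 the set that peaked on day -9 of 2012 had a median of 4.00 on day -14, 4.96 on day -7, 5.02 on day 0 and 3.11 on day 35. In 2014 it was 4.15 on day -6, 4.91 on day 0, 4.80 on day 7 and 2.94 on day 49.

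Most fallers were highest on the 2 earliest days of the season. Of the 1681, 1201 were highest on day -28 and 398 on day -18, and 728 were lowest on day 32. Since they were chosen as higher on day -18 than on day -9, an early peak is in part given by the choice. Lowest on day -9 were 151 of them, whose higher means on all later days are fixed by this grouping.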

How the data were processed

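Berry RNA was measured with non-directional TruSeq libraries, per the labels' protocols. The authors deposited RPKM values for 29971 gene models in 165 libraries. TopHat2 (2.0.6) and Cufflinks (2.0.2) are the tools listed in the submitters' processing notes; settings and genome build are not given in the sources used here. Depth is unknown, as low values are not whole multiples of 1 read.

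Values were tested as log2(RPKM + 1) with limma 3.58.1 in R 4.3.3, with an intensity trend, day and thinning level as terms (9 residual and 3.17 prior degrees of freedom). A gene model was tested where 3 or more libraries of a fit reached an RPKM of 1. Adjusted p-values are Benjamini-Hochberg over all gene models tested, with calls at 0.05 and an absolute log2 change or difference of at least 1, and at 0.05 alone for the interaction of day and thinning. Season differences were fitted over 24 libraries with thinning within season, and calls in the other seasons used the same filter and limits. The fits were tested on simulated data. Summaries used Python 3.11.15, pandas 2.3.3 and numpy 2.4.6.

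Named gene models are the largest changes without overlap between days and those with the largest gain or loss of mean RPKM; as no identifier could be matched to a gene name, 2 that rose and 2 that fell are named and the rest are summarised, and the planned lists of pathway and marker genes could not be applied. Groups, gene sets and lists were chosen with earlier results of these data known. Alternatives were another pseudocount, no filter, other scalings, left-out libraries, library weights, a replicate block and a fit over 55 groups.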

Additional observations from a re-analysis of the deposited data

Results flagged for a closer look

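The value of VIT_09s0002g00670 in replicate 3 of 75% thinning on day -9, 4.05 RPKM, stood far from the other 5 libraries of that day, at 0.584 to 1.57 RPKM. Of 36 sets of 6 values examined in this way it was the only one flagged. Chance flags about 1 set in 20, so a single flag among 36 does not mark this library as unusual. Whether chance gave it was not tested. The count holds for those 36 sets only. A gap wider for its range was seen elsewhere, for VIT_06s0061g00550 on day -6 of 2014. There a single library held 983 RPKM and the others 14.2 to 150.

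The size of the step differed between seasons when the difference itself was tested in limma. It did so for 627 gene models between 2012 and the 2013 step (day -7 against -14), for 2526 between 2012 and the 2014 step from day -14 to day -6, and for 937 between 2012 and the 2014 step from day -6 to day 0. The steps span different numbers of days and different sugar levels, and the part of either in these differences was not tested.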

How the results depend on the processing

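The step of day -9 against -18 gave between 2165 and 3585 calls under all alternatives with a fold limit, the lowest at 75% thinning alone and the highest with a pseudocount of 0.1, and 9493 with no limit on the log2 change (4017 higher, 5476 lower). Leaving out 1 library gave 2555 to 2850; here and below, only the 12 libraries of 2012 were left out in turn, and none of 2013 or 2014. None of the 2733 called gene models changed sign in these fits. That is largely given, as they were chosen for a large change and the fits reuse the same libraries. The interaction with thinning gave 2 calls with a pseudocount of 0.1, 3 with no filter, 952 over all 55 groups, 2801 with gene-by-gene library weights, and 0 to 2417 with 1 library left out. The difference from 2013 gave 951 with a pseudocount of 0.1, 389 without both libraries that stood apart, and 481 to 948 with 1 library left out. The difference from the 2014 step into day -6 gave 2358 to 2683 with 1 library left out, and that from the step into day 0 gave 809 to 1172. Causes were not tested. With a replicate block the counts were 2744 for the step, 0 for the interaction, 594, 2521 and 874 for the differences from 2013, 2014 day -6 and 2014 day 0. Deviations of same-numbered libraries correlated at -0.07 to 0.13 between the days. Of the 12 libraries, 6 correlated best with their own number, with each pair counted from both days. These values cannot show whether same-numbered samples shared a vine block. The labels tie them by number only, so no pairing was assumed. The planned counts over gene lists were not run, as no identifier could be matched. Library weights, whose restricted likelihood estimate stopped short of convergence in 1 fit, and the 2014 day 0 comparison were added after the data were seen. Unknown depth limits what can be said of low gene models.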
